A study of Mus musculus with 2 samples.

Results

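The genes described here make and load the peptides that MHC class I molecules show at the cell surface. They are 10 genes of the 27275 in the deposited table, chosen by name: the classical heavy chains H2-K1 and H2-D1, their light chain B2m, the transporter genes Tap1 and Tap2, the loading chaperone Tapbp, the immunoproteasome subunits Psmb8, Psmb9 and Psmb10, and the transactivator Nlrc5. All 10 were found. RNA of the small intestine, from its proximal part by the design text, was sequenced in 1 library per genotype from naive mice. The KO library carries the genotype label Spibfl/flVillin-Cre, in which a floxed Spib is removed by Cre from the villin promoter, active in intestinal epithelium. The WT library carries the label Spib+Villin-Cre, so both labels name the Cre transgene. Age, sex, strain and the number of mice behind each library are unknown here, since the labels do not state them. Spib encodes an ETS family transcription factor known for its role in M cells and B cells.

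In the class I pathway, proteasomes cut proteins of the cytosol into peptides, a transporter carries the peptides into the endoplasmic reticulum, and chaperones fit them onto a heavy chain paired with beta-2-microglobulin for display to CD8 T cells. Interferon-gamma is known to switch on most of these genes, including catalytic subunits that replace the constitutive ones and so form the immunoproteasome. NLRC5 is the class I counterpart of CIITA, the transactivator of MHC class II, and it works with the RFX proteins on a promoter module that includes the X and Y boxes. In the gut, class I molecules are carried by epithelial and immune cells alike, and many lymphocytes that sit within the epithelium recognise class I or class I-like molecules.

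Both libraries held epithelial RNA. All 10 epithelial markers measured were above 0 in both libraries and summed to 6869 FPKM in the KO library and 6836 FPKM in the WT library. No gene that tells parts of the intestine apart was looked at, so the region in the label was not checked. FPKM is a read number per gene length and per library depth. Spib had 0.592 FPKM in the KO library, from 30 reads, against 4.94 FPKM in the WT library, from 247 reads. The totals behind the values, recovered from the steps of the FPKM, were 17658566 reads in the KO library and 17425640 in the WT library. Since neither genotype was replicated, genotype was not tested, no p-value is given, and every difference below is one between these libraries. Beside folds stand exact Clopper-Pearson 95% intervals from the recovered reads, which cover counting error only and are too narrow where PCR copies were counted as separate reads.

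All 10 genes were lower in the KO library. The median log2 ratio, taken as log2((KO FPKM + 1) / (WT FPKM + 1)), was -0.49 over the 10 genes, against -0.05 over the 13479 genes compared, which had at least 1 FPKM in at least 1 library. The ratios ran from -1.05 for Tap1 to -0.38 for H2-K1. A ratio below 0 was found for 58.7% of all compared genes. At least 2-fold lower on this scale were 2 of the 10 genes, Tap1 and Nlrc5, against 2.51% of all compared genes. None of the 10 was at least 2-fold higher, against 1.61% of all compared genes. At least 1.5-fold lower were 4 of the 10, with Psmb8 and Psmb9 added, against 5.69% of all compared genes. Carried to this log2 scale, the counting intervals of all 4 hold the value for 2-fold lower. The counting interval of the plain fold lay below 1 for all 10, and for 27.9% of the 11842 compared genes whose reads followed from the annotated exon length. That set leaves out 4 of the 10 genes. The interval narrows as reads rise, so these figures depend on abundance as well as on the fold. Whole tissue does not separate fewer cells of a type from less RNA per cell.

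**Figure D1:**
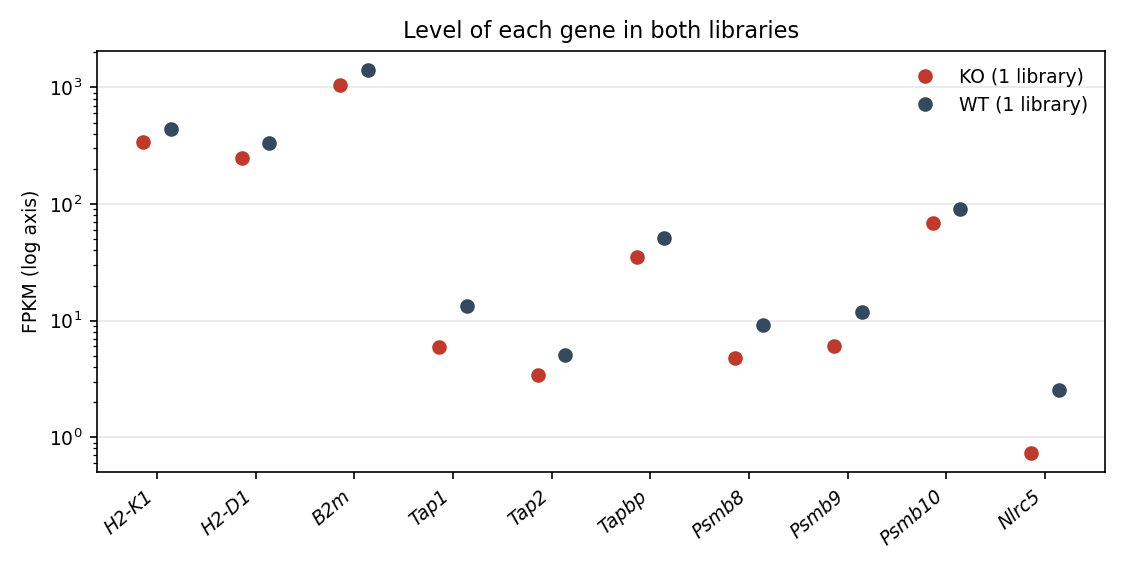
FPKM of each gene on a log axis in the KO library (red, left) and the WT library (dark, right), 1 library each. The KO point lies below the WT point for all 10 genes, and levels run from 0.733 FPKM for Nlrc5 to 1059 FPKM for B2m in the KO library.

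**Figure D2:**
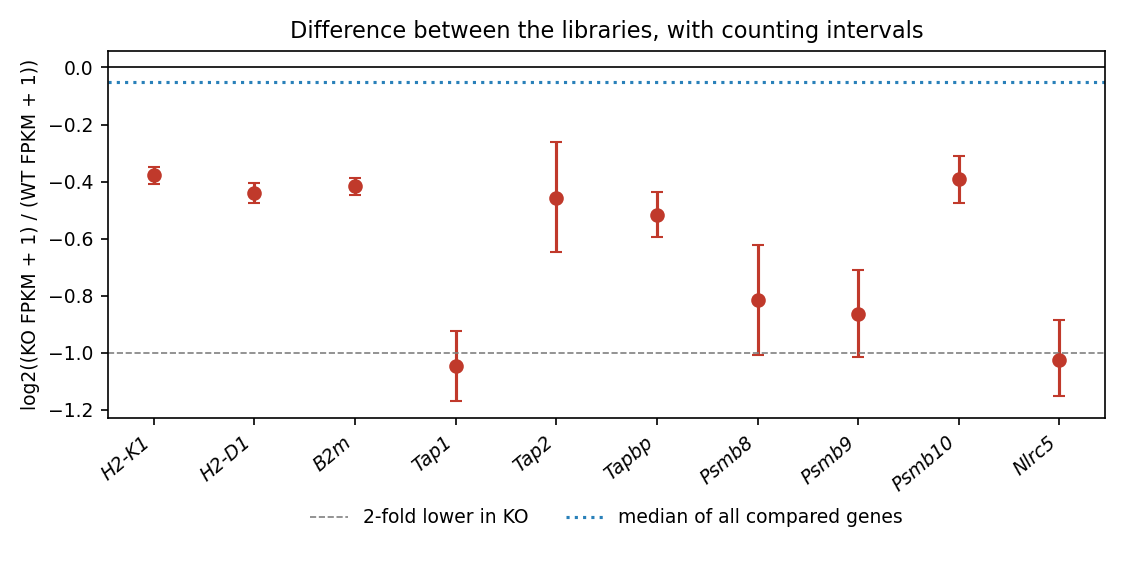
Log2 ratio of each gene with a pseudocount of 1 FPKM. The bars carry the counting interval of the fold to this scale with the WT value held, the dashed line marks 2-fold lower in KO, and the dotted line marks the median of all compared genes, -0.05. Tap1 and Nlrc5 lie below the dashed line, and the heavy chains, B2m and Psmb10 lie closest to 0. The bars of Tap1, -1.17 to -0.92, and Nlrc5, -1.15 to -0.89, cross the dashed line. Those of Psmb9 and Psmb8 reach past it as well, to -1.02 and -1.01.

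The heavy chains and their light chain were the most abundant of the genes and were 1.30-fold to 1.36-fold lower in KO. H2-K1, which encodes the classical heavy chain K (chromosome 17, minus strand, 33996017 to 34000347, mm10), had 338 FPKM in the KO library and 440 FPKM in the WT library. That is 1.30-fold lower in KO, with a counting interval of 1.27 to 1.33. H2-D1, the classical heavy chain D (chromosome 17, plus strand, 35262730 to 35267499), had 246 FPKM in the KO library against 335 FPKM in the WT library, 1.36-fold lower (1.33 to 1.39). B2m, the invariant light chain that every classical heavy chain needs to reach the surface (chromosome 2, plus strand, 122147686 to 122153083), had 1059 FPKM in the KO library and 1415 FPKM in the WT library, 1.34-fold lower (1.31 to 1.36). B2m was the 34th most abundant gene of the KO library and the 25th of the WT library. Heavy and light chains stood in nearly the same proportion in both libraries, with 1.81 FPKM of B2m per FPKM of H2-K1 and H2-D1 together in KO and 1.83 in WT. H2-K1 and H2-D1 summed to 585 FPKM in the KO library and 775 FPKM in the WT library. Their transcripts are alike in part, so that 9.63% of the distinct 50-base stretches of H2-K1 and 12.8% of those of H2-D1 also occur in transcripts of another gene. The labels do not say how the authors counted such reads.

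The starts of these 3 genes are shown because they carry the same order of motifs. Psmb10, which was 1.32-fold lower and so within their range of folds, has a window with none of the motifs searched. The RefSeq windows (build GRCm38.p6, the reference strain C57BL/6J) run from 250 bases before to 50 after the start of a gene, and 8 of the 10 genes have one. Motifs were searched on both strands, and capitals mark every match within the 180 bases before the start that are printed. The motifs were a kappaB site (GGGA, any base, T, any 2 bases, CC), the X2 box TGACG, the Y box ATTGG, an interferon-stimulated response element (GAAA and GAAA with 2 bases between them), the gamma-activated site TTCNNNGAA, a composite site for ETS and IRF factors (GGAA and GAAA with 2 bases between them) and the PU box GAGGAAGT, which PU.1 and SPIB are known to bind. In H2-K1 and H2-D1 the kappaB site is matched on both strands by overlapping letters.
H2-K1, minus strand, chr17:34000348-34000527: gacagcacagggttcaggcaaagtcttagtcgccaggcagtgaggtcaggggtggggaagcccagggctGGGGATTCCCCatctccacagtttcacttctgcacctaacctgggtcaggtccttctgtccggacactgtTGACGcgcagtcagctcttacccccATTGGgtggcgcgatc
H2-D1, plus strand, chr17:35262914-35263093: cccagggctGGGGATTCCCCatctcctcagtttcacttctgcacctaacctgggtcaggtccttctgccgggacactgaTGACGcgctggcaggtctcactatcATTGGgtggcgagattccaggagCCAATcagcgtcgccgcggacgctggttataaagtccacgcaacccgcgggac
B2m, plus strand, chr2:122147507-122147686: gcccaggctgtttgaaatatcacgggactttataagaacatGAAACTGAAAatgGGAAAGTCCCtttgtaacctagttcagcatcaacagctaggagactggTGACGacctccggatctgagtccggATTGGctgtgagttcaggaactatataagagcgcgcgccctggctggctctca

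In each of the 3 sequences a kappaB site lies before TGACG and TGACG before ATTGG, and these last motifs lie 25 bases apart from start to start. Windows with TGACG followed by ATTGG on the same strand at 15 to 35 bases make up 0.743% of the 32851 RefSeq windows, and 3 of the 8 windows of these genes hold that order. This spacing was chosen after the sequences were read. Singly the motifs are common, with TGACG in 20.8% of all windows and in 5 of the 8, ATTGG in 37.4% and in 6 of the 8, and the kappaB site in 4.16% and in 3 of the 8. The windows of Tap1 and Psmb9 hold 275 bases in common, and their TGACG and ATTGG are the same sites, counted once for each gene. The exact pattern of the interferon-stimulated response element was found in 1 of the 8, B2m, and in 3.44% of all windows. Near matches were not counted or capitalised for any motif, so a window without a match is not shown to lack such an element. The gamma-activated site was found in 1 of the 8, Psmb8, and in 8.30% of all windows. Neither the ETS and IRF composite nor the PU box was found among the 8 windows, against 2.72% and 3.20% of all windows. The windows of H2-K1 and H2-D1 were equal at 211 of 239 aligned bases, 88.3%.

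Of the transporter and loading genes, Tap1 differed most. Tap1, the first subunit of the peptide transporter of the endoplasmic reticulum (ENSMUSG00000037321, plus strand of chromosome 17, 34187553 to 34197225, mm10), had 5.88 FPKM in the KO library, from 569 reads, against 13.2 FPKM in the WT library, from 1262 reads. It was 2.25-fold lower in KO (2.03 to 2.49), and 2.29% of all compared genes had a lower log2 ratio. Tap2, its partner subunit (same strand, 34203527 to 34216321), had 3.38 FPKM in the KO library from 226 reads and 5.02 FPKM in the WT library from 331 reads, 1.48-fold lower (1.25 to 1.77). The level of Tap1 per Tap2 was therefore 1.74 in the KO library and 2.63 in the WT library, 1.51-fold lower in KO. Combining the far ends of both counting intervals, the KO ratio was 0.503 to 0.868 of the WT ratio. Tapbp, which encodes tapasin, the bridge between the transporter and the empty heavy chain (chromosome 17, plus strand, 33915899 to 33929292), had 35.2 FPKM in the KO library against 50.7 FPKM in the WT library, 1.44-fold lower (1.36 to 1.53). Tapbp overlaps Zbtb22 on the same strand, and Zbtb22 had 11.6 FPKM in KO and 11.8 FPKM in WT.

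The immunoproteasome subunits split into a pair that was almost 2-fold lower and one that was closer to the heavy chains. Psmb9, the subunit LMP2 that takes the place of Psmb6 at the caspase-like site (chromosome 17, minus strand, 34181987 to 34187764), had 6.05 FPKM in the KO library from 391 reads and 11.8 FPKM in the WT library from 754 reads, 1.95-fold lower (1.73 to 2.21). Psmb8, the subunit LMP7 that takes the place of Psmb5 at the chymotrypsin-like site (plus strand, 34197721 to 34201454), had 4.76 FPKM in the KO library and 9.14 FPKM in the WT library, 1.92-fold lower (1.63 to 2.26). Psmb10, the subunit MECL-1 that takes the place of Psmb7 at the trypsin-like site, lies outside the MHC, on the minus strand of chromosome 8 from 105935735 to 105938444. It had 68.3 FPKM in the KO library, from 2055 reads, against 89.8 FPKM in the WT library, from 2669 reads, 1.32-fold lower (1.24 to 1.39). Psmb10 was thus more than 10 times as abundant per length as either of the other subunits in the KO library, with Psmb9 at 6.05 and Psmb8 at 4.76 FPKM. In the WT library Psmb10, at 89.8 FPKM, was less than 10 times as abundant as Psmb9 at 11.8 or Psmb8 at 9.14 FPKM.

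Tap1 and Psmb9 lie head to head, and the stretch between their RefSeq starts is shown because the pair shares it. The starts are 226 bases apart, and the annotated spans overlap by 212 bases on opposite strands, where reads of the genes could not be told apart without a strand setting. The sequence reads on the Tap1 strand from the Psmb9 start on the left to the base before the Tap1 start on the right. Capitals mark an ATTGG of the Psmb9 strand, read here as CCAAT, and a TGACG.
Tap1 and Psmb9, plus strand, chr17:34187330-34187555: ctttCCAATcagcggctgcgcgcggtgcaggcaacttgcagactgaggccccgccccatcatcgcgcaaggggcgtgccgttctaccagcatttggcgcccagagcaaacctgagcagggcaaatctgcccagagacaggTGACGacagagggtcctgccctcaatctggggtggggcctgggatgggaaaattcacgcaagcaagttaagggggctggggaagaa

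The 4 genes Psmb9, Tap1, Psmb8 and Tap2 follow one another on chromosome 17 from 34181987 to 34216321. The first 3 of them were 1.92-fold to 2.25-fold lower in the KO library, while Tap2 was 1.48-fold lower with an interval that reaches 1.77. Psmb8 and Tap2 both overlap the antisense gene Gm20496, which had 0.0854 FPKM in KO and was listed at 0 in WT.

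Nlrc5 had the lowest level and the largest plain fold of the 10 genes. This transactivator of class I genes (ENSMUSG00000074151, plus strand of chromosome 8, 94434356 to 94527272, mm10) had 0.733 FPKM in the KO library, from 110 reads, against 2.53 FPKM in the WT library, from 374 reads. It was 3.45-fold lower in KO, with a counting interval of 2.78 to 4.30. Because its level is low, the log2 ratio of -1.02 understates that fold, and 2.40% of all compared genes had a lower ratio. Within each library the order of the levels was the same from B2m through H2-K1, H2-D1, Psmb10 and Tapbp, and from Psmb8 through Tap2 to Nlrc5. The neighbours between them changed places, with Psmb9 at 6.05 and Tap1 at 5.88 FPKM in KO, where their counting intervals overlap, and Psmb9 at 11.8 and Tap1 at 13.2 FPKM in WT, where the intervals overlap as well. In KO the counting interval of Psmb8, 4.17 to 5.42 FPKM, also reaches that of Tap1, 5.41 to 6.39 FPKM, and no other neighbours overlapped in either library.

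Set against the constitutive subunits of the same libraries, Psmb8 and Psmb9 were lower in KO beyond the counting intervals and Psmb10 was not. The constitutive Psmb5 had 20.4 FPKM in KO and 26.2 FPKM in WT, Psmb6 had 35.5 and 41.0 FPKM in KO and WT, and Psmb7 had 13.9 FPKM in KO and 16.5 FPKM in WT. Psmb8 per Psmb5 was 0.233 in the KO library and 0.349 in the WT library. The KO ratio was 0.669 of the WT ratio, and the far ends of both counting intervals gave 0.488 to 0.915. Psmb9 per Psmb6 was 0.171 in KO and 0.289 in WT, 1.69-fold lower, with far ends of 0.482 and 0.724. Psmb10 per Psmb7 was 4.91 in KO and 5.45 in WT, and its far ends, 0.774 and 1.05, include 1. Over the 3 pairs together the immunoproteasome subunits made up 53.1% of the summed FPKM in KO and 57.0% in WT, a share that Psmb10 dominates.

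**Figure D3:**
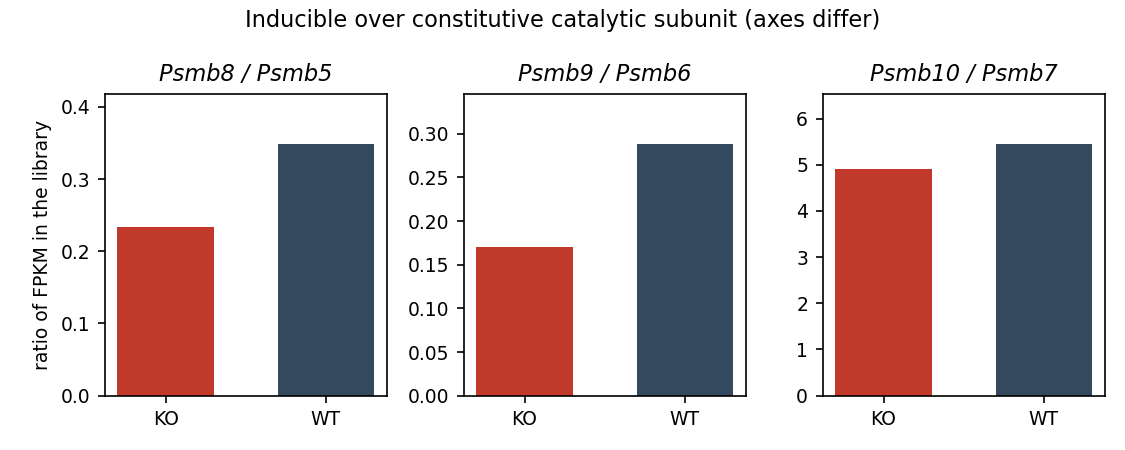
Ratio of the FPKM of each inducible subunit to that of the constitutive subunit it replaces, in the KO library (left bar) and the WT library (right bar), 1 library each, with a separate vertical axis from 0 in each panel. Psmb8 per Psmb5 was 0.233 in KO and 0.349 in WT, Psmb9 per Psmb6 was 0.171 and 0.289 in KO and WT, and Psmb10 per Psmb7 was 4.91 in KO and 5.45 in WT.

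The medians of the other proteasome lists lay closer to 0. The other 11 subunits of the 20S core had a median log2 ratio of -0.08, with 9 below 0 and none past 2-fold. The most abundant were Psmb1, a structural beta subunit, at 111 FPKM in KO and 115 FPKM in WT, and Psmb4 at 74.0 FPKM in KO and 80.9 FPKM in WT. The 18 subunits of the 19S regulator, the cap that unfolds ubiquitinated proteins, had a median of -0.09 with 14 below 0 and none past 2-fold. The most abundant were the ATPases Psmc6, which had 74.9 FPKM in KO against 60.8 FPKM in WT, and Psmc1, which had 58.2 FPKM in KO against 60.8 FPKM in WT. Psmc6 had the highest ratio of the 18, and the interval lay below 1 for 9 of them. Of the 9 genes of the PA28 activators and of proteasome assembly, with a median of 0.04 and 4 below 0, none passed 2-fold. Psmg4, an assembly chaperone picked out after its values were seen, had the lowest ratio, -0.46, and was 1.44-fold lower (1.03 to 2.02). The interferon-inducible PA28 subunits Psme1 and Psme2 were the most abundant of these, with Psme1 at 42.3 FPKM in KO against 52.7 FPKM in WT and Psme2 at 71.7 FPKM in KO against 82.4 FPKM in WT.

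Other class I heavy chains did not differ alike. Of 33 such genes looked for, 24 were measured and 17 compared, with a median log2 ratio of -0.19, 16 below 0, 2 past 2-fold lower and none past 2-fold higher. The counting interval lay below 1 for 9 of the 17. With a minimum of 5 FPKM the median was -0.05, and with a pseudocount of 5 FPKM it was -0.09. The 2 most abundant were close to equal. H2-Q2 had 250.3 FPKM in KO against 257 FPKM in WT, and H2-T23, which encodes the Qa-1 molecule that presents leader peptides to NKG2 receptors, had 89.8 FPKM in KO against 90.2 FPKM in WT. The counting intervals of both folds include 1. Those past 2-fold were H2-Q5, at 1.57 FPKM in KO against 5.52 FPKM in WT, and H2-Q7, at 2.95 FPKM in KO against 7.56 FPKM in WT, 2.57-fold lower (2.19 to 3.01). H2-Q7 encodes a form of Qa-2, and its copies in the Q region are so alike that values of single members are uncertain.

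Among 13 further genes of loading and trimming, with a median of -0.05, 9 below 0 and none past 2-fold, the chaperone Calr had 253 FPKM in KO against 294 FPKM in WT. Hspa5, the general chaperone BiP of the endoplasmic reticulum, had 232 FPKM in KO and 231 FPKM in WT. Of these 13 genes, Lap3 and Tapbpl had the lowest ratios, and they were picked out after their values were seen. Lap3, a leucine aminopeptidase, was 1.46-fold lower (1.42 to 1.51) and Tapbpl, the tapasin-related peptide editor, was 1.45-fold lower (1.31 to 1.60).

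For 18 factors known to act on class I or class II genes, the median log2 ratio was -0.24, with 16 below 0 and none past 2-fold on the log2(FPKM + 1) scale. The lowest was Ciita, the class II transactivator, at -0.91 on that scale and 2.26-fold lower as a plain fold. Irf1, an interferon-induced activator of Tap1 and Psmb9, had 29.9 FPKM in KO and 39.5 FPKM in WT, and Irf7 had 13.7 FPKM in KO and 18.5 FPKM in WT. The RFX genes, partners of NLRC5, lay nearer to 0, and their intervals include 1: Rfx5 had 1.15 FPKM in KO against 1.36 FPKM in WT, Rfxap 5.68 FPKM in KO against 5.86 FPKM in WT, and Rfxank 2.51 FPKM in KO against 2.05 FPKM in WT. Of 14 genes for interferons, their receptors and the kinases behind them, with Socs1 added, 11 were measured and 10 compared. Their median log2 ratio was -0.04, with 5 below 0, 5 above 0 and none past 2-fold. The counting interval lay below 1 for 4 of them and above 1 for 4. Socs1 had the lowest ratio, -0.70, and was 1.95-fold lower (1.49 to 2.58). The receptor chains Ifngr1 and Ifngr2 were the most abundant. Ifngr1 had 68.1 FPKM in KO against 73.1 FPKM in WT, and Ifngr2 had 72.0 FPKM in KO against 52.0 FPKM in WT, 1.38-fold higher (1.32 to 1.45). Interferon-gamma itself was not analysed here.

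**Figure D4:**
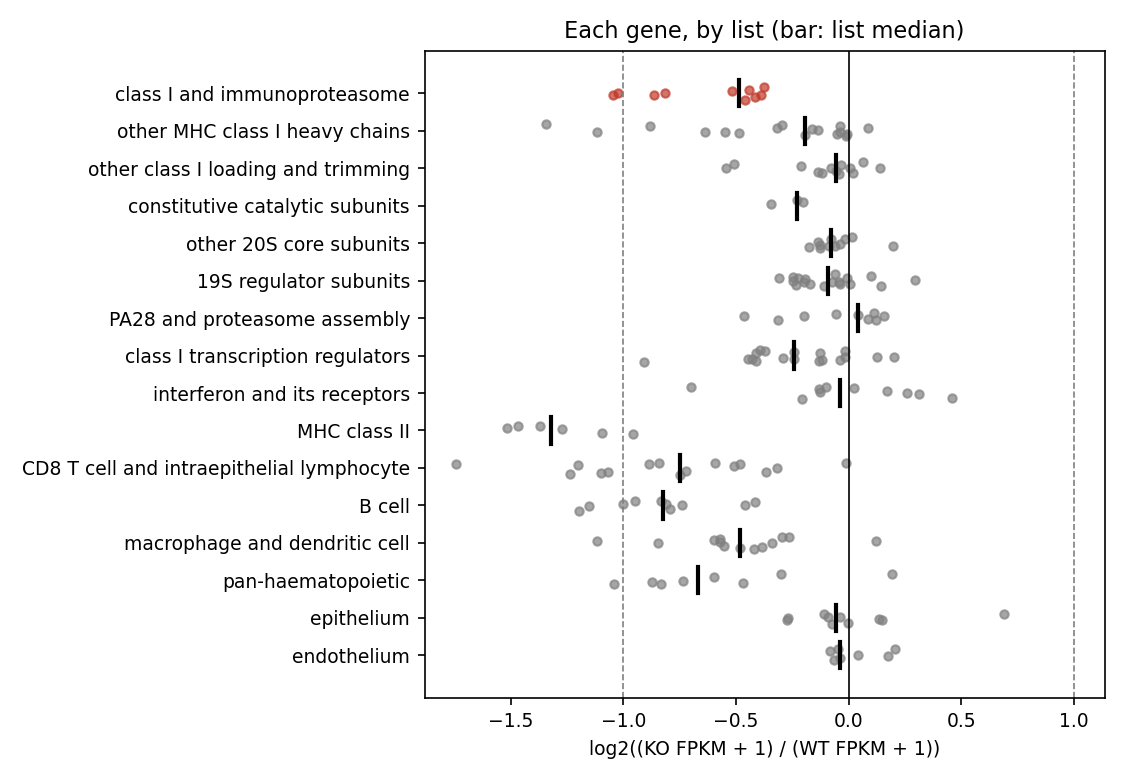
Log2 ratio, KO over WT, of each compared gene (points) by list, with the list median as a bar and dashed lines at 2-fold. The class I and immunoproteasome genes (red) have a median of -0.49, the MHC class II genes -1.32, and the macrophage and dendritic cell markers -0.48. The medians of the lymphocyte and pan-haematopoietic lists lie between -0.82 and -0.67, and those of the epithelial and endothelial lists lie near 0.

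Summed markers of immune cells were lower in the KO library beside these genes, while summed epithelial markers were close to equal. Pan-haematopoietic markers had a median of -0.67, with 7 of 8 below 0. They summed to 49.0 FPKM in KO against 82.1 FPKM in WT, 1.68-fold lower, with Laptm5 past 2-fold and no marker at 0. The ratio of Vav1 was above 0, with 5.21 FPKM in KO against 4.43 FPKM in WT and an interval that includes 1. T cell and intraepithelial lymphocyte markers had a median of -0.75, with 15 of 15 compared below 0. Summed over all 19 measured, they had 48.4 FPKM in KO against 110.5 FPKM in WT, 2.28-fold lower. The granzymes Gzma and Gzmb and the chemokine Ccl5, the most abundant in both libraries, weigh most in this sum. These genes, the granule protein gene Nkg7 and the receptor chain Trac were past 2-fold, 5 in all. Ccl5 had 4.13 FPKM in KO against 16.2 FPKM in WT. Trbc2 was 1.38-fold lower (0.91 to 2.10) and Cd244 1.01-fold lower (0.82 to 1.25), with intervals that include 1. Cd8a, the co-receptor that reads class I, had 1.53 FPKM in KO against 3.53 FPKM in WT. B cell markers, with 10 of 10 below 0, summed to 13.3 FPKM in KO against 34.5 FPKM in WT, 2.60-fold lower, and Cd79a, Cd79b and Cd37 passed 2-fold. Macrophage and dendritic cell markers had a median of -0.48, with 12 of 13 compared below 0. Summed over all 16 measured, they had 160 FPKM in KO against 235 FPKM in WT, 1.47-fold lower. Ccr7 passed 2-fold, from 19 reads in KO and 81 in WT. Csf1r was 1.22-fold lower (1.12 to 1.32). The ratio of Adgre1 was above 0, with 5.51 FPKM in KO against 4.99 FPKM in WT and an interval that includes 1. The 10 epithelial markers had a median of -0.06, with 7 below 0, and ratios from -0.27 for Cldn7 to 0.69 for Krt18. The counting interval of the fold lay below 1 for 6 of them and above 1 for 3. The most abundant, the keratin Krt8, had 2337 FPKM in KO against 2131 FPKM in WT, and Krt20 had 1207 FPKM in KO against 1241 FPKM in WT. The 7 endothelial markers had a median of -0.04, with 4 below 0. Whether these marker levels had a part in the class I difference was not tested, and with 1 library per genotype it could not be.

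Genes of the class II pathway, which CIITA governs, were lower as well. The median of 6 such genes was -1.32, with 5 past 2-fold lower, and they summed to 329 FPKM in KO against 810 FPKM in WT, 2.46-fold lower. The 10 class I and immunoproteasome genes summed to 1768 FPKM in KO and 2372 FPKM in WT, 1.34-fold lower. B2m, H2-K1 and H2-D1 dominate the sum of these 10 genes, among which Psmb8, Psmb9, Tap1 and Nlrc5 were 1.92-fold to 3.45-fold lower. The difference between these lists was not tested, since each genotype has 1 library. Nlrc5 was 3.45-fold lower in KO (2.78 to 4.30) and Ciita was 2.26-fold lower (2.01 to 2.54), with 2.29 FPKM in KO against 5.17 FPKM in WT.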

How the data were processed

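The authors deposited a table of FPKM values for 27275 genes, with 1 column for each of the 2 libraries, KO and WT. Per the labels' protocols, RNA was extracted with TRIzol and its cDNA amplified by SMART-SeqII. Bowtie2 2.2.3, HTSeq 0.6.0 and mm10 stand in the submitters' processing notes, without role or order. Annotation, strand setting, filters, the treatment of reads with several matches and any pooling of mice were not given in the sources used.

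The libraries were grouped by their titles. Genes with at least 1 FPKM in at least 1 library were compared on log2(FPKM + 1), and a gene was counted past 2-fold at a ratio of 1 or more in size. Folds in the text are plain ratios of FPKM. FPKM times the exon length of GENCODE M21 (GRCm38, the assembly of mm10, which held 27222 of the genes) came out within 0.01 of a whole read for 90.7% of the KO values and 90.6% of the WT values above 0, which gave the read totals. The sources used here do not give whether these count mapped or assigned reads. For 4 of the 10 genes, H2-K1, Tapbp, Psmb8 and Psmb9, the reads are the pair within 0.0001 of whole numbers whose implied length was nearest to the annotated one, so that their intervals are less certain. The same holds for Psmb5, Ciita, Ifngr2 and some other genes of the lists. The range given for Psmb8 per Psmb5 thus rests on such reads for both genes. Read recovery from known exon lengths was tested on simulated data. The floor of 3 reads is 0.170 FPKM in KO and 0.172 FPKM in WT for a transcript of 1 kb. Python 3.11.15, numpy 2.4.6, scipy 1.17.1, pandas 2.3.3 and Biopython 1.88 were used.

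The genes and lists were chosen with earlier results of these data known. Named genes are the 10 themselves and were otherwise drawn from the genes past 2-fold and the pair of highest mean FPKM in each list. Cd8a, Ciita, Psmb7, Lap3, Tapbpl, Psmg4, Cldn7, Krt18, the RFX genes and overlapping genes were named in addition, after their values were seen. The same holds for Socs1, Vav1, Csf1r, Adgre1, Trbc2 and Cd244. With 2 libraries a pattern is a single ratio, so no gene was named for a like pattern. Other pseudocounts, filters, scalings and thresholds were tried as alternatives.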

Additional observations from a re-analysis of the deposited data

How the results depend on the processing

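With 1 library per genotype, no variation between mice could be measured, and the intervals hold counting error only. The 10 genes had ratios below 0 under all 5 pseudocounts and scalings tried in place of the main ones, 50 values between -1.66 and -0.26, and their median lay between -0.54 and -0.43. These signs could not have changed, since a pseudocount keeps the sign of a ratio and the scalings were small. The scalings shifted the KO values by -0.030 to 0.037 on the log2 scale. Under them, 52.9% to 62.8% of all compared genes had a ratio below 0. The scalings moved the median of all compared genes by less than 0.1, to between -0.07 and -0.02. Of the 10 genes, 0 were at least 2-fold lower with a pseudocount of 5 FPKM, 1 among genes of at least 5 FPKM, which leaves out Nlrc5, 4 at 1.5-fold, and 10 had a counting interval below 1, against 2 in the main comparison. Of the 13479 compared genes, 338 (2.51%) were at least 2-fold lower in the main comparison, 575 at a pseudocount of 0.1 and 122 at one of 5. At 1.5-fold 767 (5.69%) were lower. At a minimum of 5 FPKM 193 were at least 2-fold lower, out of fewer genes. The counting interval lay below 1 for 27.9% of the 11842 compared genes whose reads followed from the annotated exon length. The list of T cell and intraepithelial lymphocyte markers had a median of -1.14 at a pseudocount of 0.1, -0.27 at one of 5 and -1.20 at a minimum of 5 FPKM. For B cell markers these were -1.34, -0.30 and -1.18. The class II median was -1.06 with a pseudocount of 5, and the epithelial median was -0.019 with the median ratio of genes of at least 5 FPKM set to 0. A larger pseudocount shrinks the ratio of low genes by its construction. No paired analysis was possible because each genotype has a single library.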
